A study of Mus musculus with 12 samples.

Results

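Odc1, Oaz1, Oaz2, Azin1, Amd1, Sat1, Srm and Sms, the mouse genes of polyamine synthesis and of its antizyme control, were followed through cisplatin (Cis) treatment of pancreatic cancer cells. The 8 genes were chosen by name out of 15803 genes with any read in the series. All 8 were listed in the data and all 8 passed the minimum level used for testing, a mean scaled RPKM of 1 over the libraries of an assay. RPKM is the number of reads on a gene, scaled to the length of its sequence and to the total of the library.

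The cells were KPC, a pancreatic ductal adenocarcinoma line from mice that carried Trp53 LSL-R172H, with another engineered allele, and Pdx1-Cre, a Cre recombinase made in pancreatic progenitors. All groups shared this genotype, and all came from the same line. Control cells were labelled as without treatment, and the study's methods name PBS as their vehicle. The other groups received 20 μM Cis for 6 h or for 21 h. Each group had 2 ribosome profiling libraries, which count the mRNA fragments covered by translating ribosomes (footprints), and 2 RNA-seq libraries, so that the series held 12. The same control libraries served both times, and the length of the control incubation was not labelled. Nothing in the labels says that the 2 libraries of a group came from separate cultures, so the p-values measure only the spread between these libraries.

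Polyamines are small positively charged molecules that bind RNA and ribosomes and are needed for growth. Ornithine decarboxylase (Odc1) makes putrescine, S-adenosylmethionine decarboxylase (Amd1) makes the aminopropyl donor, and spermidine synthase (Srm) and spermine synthase (Sms) build the longer polyamines. Spermidine/spermine acetyltransferase (Sat1) marks polyamines for export or breakdown. Antizymes (Oaz1, Oaz2) bind ornithine decarboxylase and take it to the proteasome, and their synthesis needs a shift of the reading frame that polyamines favour. Antizyme inhibitor (Azin1) resembles ornithine decarboxylase, lacks its activity and captures antizyme. The pathway is often raised in tumours, where Odc1 is a known target of Myc.

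Footprint libraries held 3375480 to 5204127 reads, and RNA-seq libraries held 1985344 to 2901692. In the RNA-seq libraries, 51.8 to 56.6% of the reads fell on Lars2, Mettl26 and Tmem38b, and 862476 to 1341584 reads were left for all other genes. Of the markers of ductal epithelium, Krt8, Krt18, Krt19 and Cdh1 were abundant, Krt7 and Sox9 were lower, and Epcam had at most 9 reads in any library. Of the markers of leukocytes, endothelium, fibroblasts, acinar and islet cells, 5 were not listed and the listed ones had at most 26 reads in any library. Intervals below cover the spread between libraries, and the sources used here name no molecular identifiers.

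In control cells the members spanned a wide range of footprint levels per coding length. Oaz1 was highest at 241 ± 0.418 RPKM (mean ± SD, n = 2, as for every mean below), followed by Srm at 117 ± 0.887, Odc1 at 104 ± 14.3 and Sms at 88.7 ± 3.38. Oaz2 at 45.4 ± 3.79 and Azin1 at 45.3 ± 3.94 overlapped, Sat1 stood at 28.5 ± 3.95, and Amd1 was lowest at 2.07 ± 1.18. Srm and Odc1 differed by less than the SD of Odc1, and Odc1 and Sms by slightly more than it.

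The order by RNA level per transcript length was different. Oaz1 again led at 125 ± 0.115 RPKM, with Odc1 next at 88.6 ± 6.69 and Srm at 38.2 ± 2.08. Sat1 at 30.9 ± 5.64 and Azin1 at 24.7 ± 2.82 differed by about their spread, Oaz2 at 15.9 ± 1.30 and Sms at 15.3 ± 0.988 overlapped, and Amd1 had 3.79 ± 2.17. Odc1, with the second highest RNA level, had a footprint level that differed from that of Srm by less than the SD of Odc1.

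Translation efficiency (TE) was taken as footprint RPKM over RNA RPKM, after scaling within each assay. The level of this ratio also carries the share of RNA-seq reads on those 3 genes and the different lengths, coding and transcript, over which the assays were scaled, so it is best read as a rank among the 9312 genes tested in both assays. In control cells Sms ranked at the 77.5th percentile with a TE of 5.83, Srm at the 43.5th with 3.09 and Oaz2 at the 39.7th with 2.88. Oaz1 stood at the 21.8th percentile with 1.94 and Azin1 at the 20.1st with 1.85. Odc1 stood lower, at the 8.49th percentile with 1.18, and Sat1 lower still, at the 4.83rd with 0.927. Amd1, at the 1.39th percentile, rested on few reads. Oaz2, at 3.16 and 2.62 in the 2 pairs of libraries with the same number, overlapped with Srm at 3.12 and 3.06, and Azin1, at 2.09 and 1.64, overlapped with Oaz1 at 1.89 and 1.98. Sms lay above the other members and Odc1, Sat1 and Amd1 below them in both pairs.

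The transcripts on which these values rest differed in layout. The leader before the reading frame was 590 nt in Azin1 and 489 nt in Odc1, against a median of 167 nt over all genes, and 334 nt in Sms and 328 nt in Amd1. Oaz2 had 198 nt, Sat1 177 nt, Srm 117 nt and Oaz1 74 nt. The frames counted were 227 codons in Oaz1 and 189 in Oaz2, so each antizyme had a single footprint value for its whole frame. Ribosomes before and after the frameshift site are summed in that value, and the frequency of frameshifting was not measured.

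**Figure D1:**
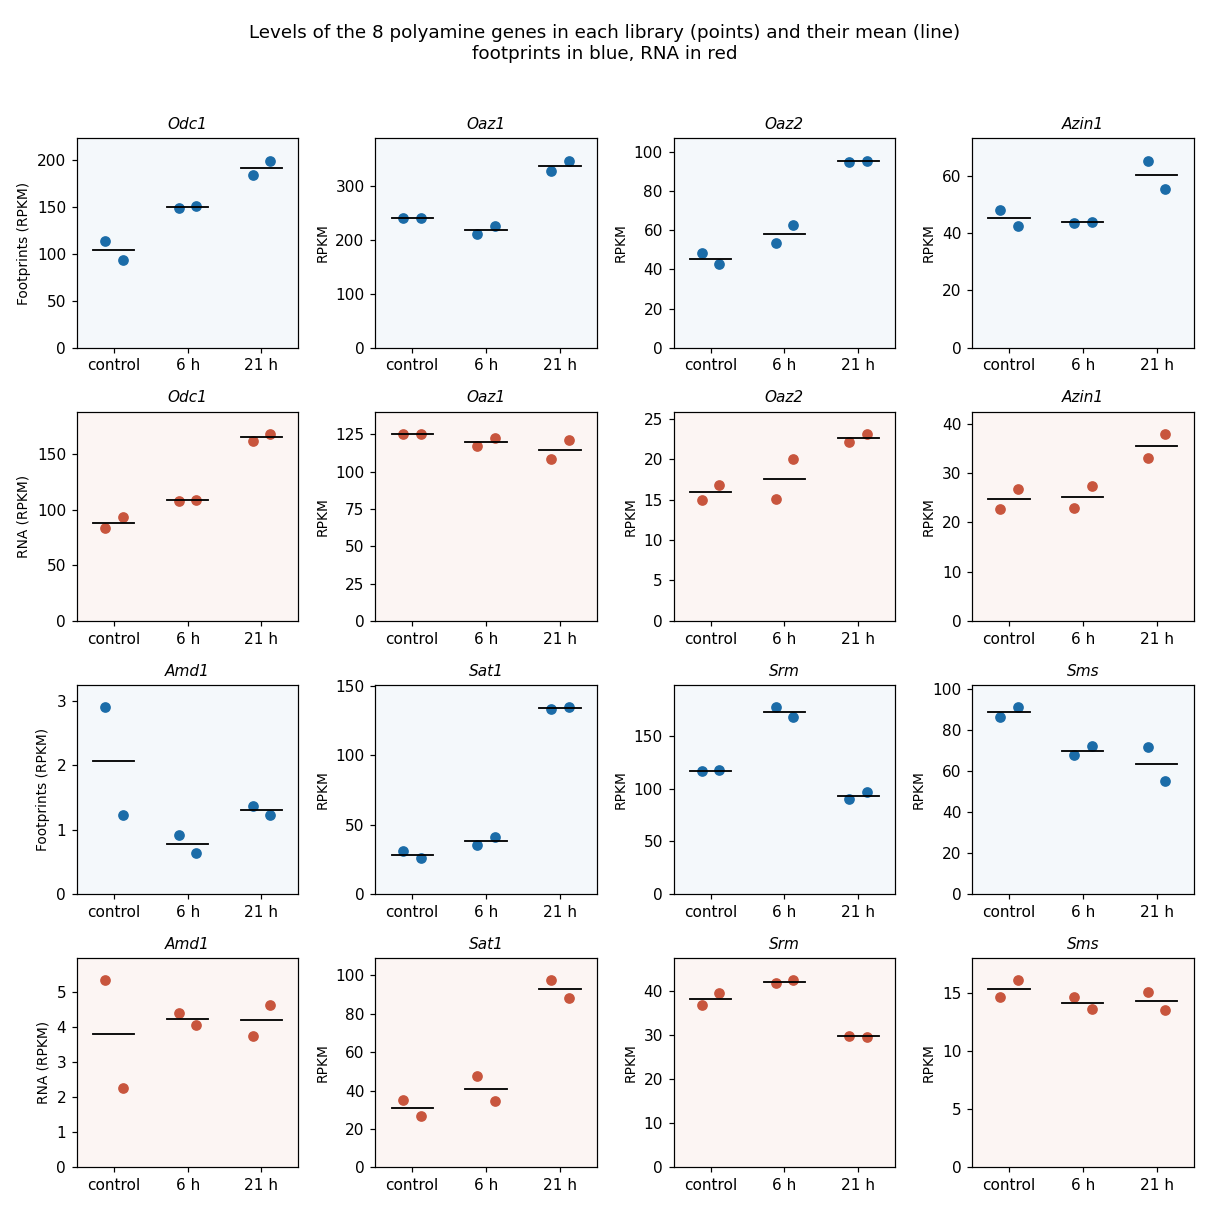
RPKM of the 8 genes in every library, with footprints in blue (coding length) and RNA in red (transcript length), groups on the x axis, a point per library and a line at the mean of 2. Sat1 footprints at 21 h, 133 and 135 RPKM, lie far above all other Sat1 libraries, whereas Oaz1 RNA stays between 109 and 125 RPKM while its footprints reach 328 and 347 RPKM at 21 h.

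After 6 h of Cis, Odc1 and Srm were the 2 members whose footprints rose, by 1.43-fold and 1.45-fold. The share of all genes called higher in this comparison was 1.05% (109 of 10390). None of the 8 was called lower in limma's main fit, where 0.991% of genes (103 of 10390) were, and limma's voom fit on recovered reads called Sms lower (adjusted p = 0.0338) among 1276 genes called in either direction. The values are relative to the whole library. A change in the total RNA per cell, in total translation or in the number of cells does not show in them. The paper reports from a puromycin assay that Cis inhibited protein synthesis, so a rise in footprints here is relative to other mRNAs. In RNA at 6 h, 0 of 8 members passed limma's test, where 0% of 9459 genes did. At an unadjusted p under 0.05 there were 2 members, Odc1 and Sat1, among 1086 genes. The voom fit called 1 member, Odc1, among 228 genes called in either direction. In TE at 6 h, 0 of 8 passed and 0% of 9312 genes did, with 2 members (Amd1 and Srm) and 712 genes at an unadjusted p under 0.05. Voom called no member in TE, and 14 of all genes.

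After 21 h, 5 members rose in footprints (Odc1, Oaz1, Oaz2, Azin1 and Sat1) and 2 fell (Srm and Sms). Over all genes, 18.9% were called higher and 20.2% lower. Of the 8, only Amd1 did not pass. The median log2 fold change of the 8 was 0.41, against 0.01 over all 10390 genes. In RNA at 21 h, 3 rose (Odc1, Azin1 and Sat1) and 1 fell (Srm), where 11.6% of genes were called higher and 12.2% lower. In TE, Oaz1 alone among the 8 passed, and it was higher, where 0.258% of genes (24 of 9312) were called higher.

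**Figure D2:**
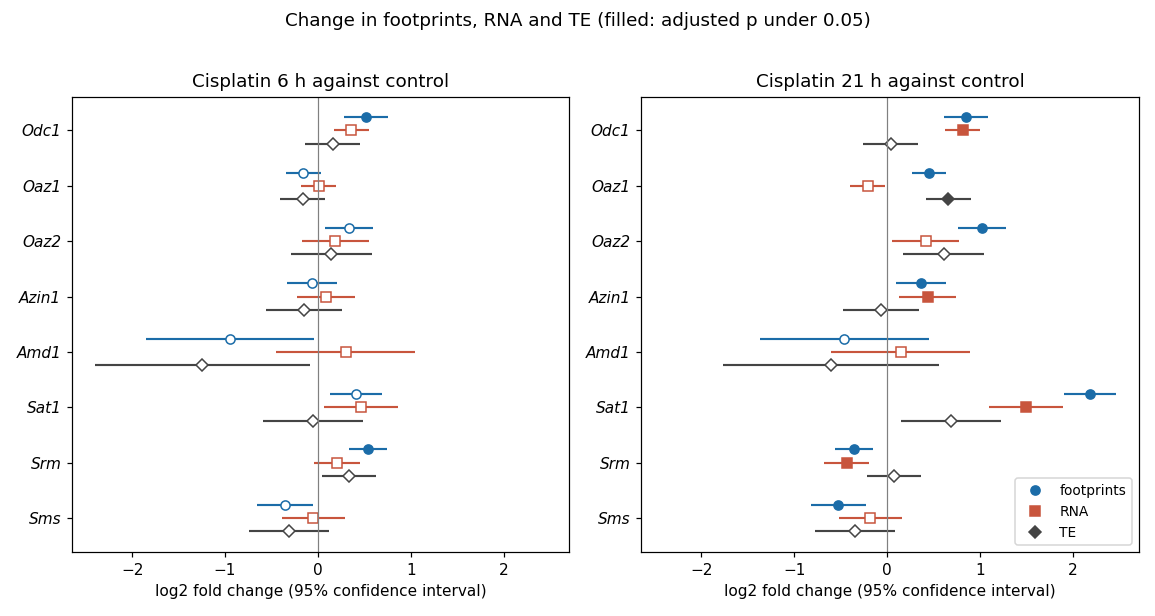
Log2 fold change against control of footprints (circles), RNA (squares) and TE (diamonds) for the 8 genes at 6 h (left) and 21 h (right), with 95% confidence intervals and filled symbols at an adjusted p under 0.05. At 21 h the symbols of Odc1 for footprints (0.85) and RNA (0.81) lie together, whereas those of Oaz1 lie on opposite sides of 0 (0.45 and -0.21).

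Odc1, the enzyme at the entry of the pathway, had footprints of 114 and 94.0 RPKM in the control libraries, 149 and 152 at 6 h, and 185 and 200 at 21 h. These were 606 to 967 reads per library, and no library of a later time overlapped with one of an earlier time. The log2 fold change was 0.52 ± 0.10 (SE) at 6 h (adjusted p = 0.0439) and 0.85 ± 0.10 at 21 h (adjusted p = 0.000451). RNA followed the same order without overlap, with 83.9 and 93.3 RPKM in control, 108 and 109 at 6 h, and 162 and 168 at 21 h. Its log2 fold change was 0.36 ± 0.08 at 6 h, which did not pass (adjusted p = 0.246), and 0.81 ± 0.08 at 21 h, which did (adjusted p = 0.00031).

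TE of Odc1 was 1.18 in control, 1.32 at 6 h and 1.21 at 21 h. The log2 difference at 21 h was 0.04, with a 95% interval from -0.26 to 0.33 (adjusted p = 0.949), so that a TE change of more than about 0.33 in either direction lay outside the interval. The size of the footprint change at 21 h (1.80-fold) was close to that of the RNA change (1.76-fold).

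The control libraries of Odc1 differed in footprints, and the 6 h call rested on both. Without the first control library the log2 fold change was 0.64 (adjusted p = 0.0683), and without the other it was 0.40 (adjusted p = 0.16). Leaving out the first or the other 6 h library gave 0.53 (adjusted p = 0.198) and 0.51 (adjusted p = 0.243). The 21 h calls in footprints and in RNA passed in every one of the 15 alternatives for each.

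Oaz1, the main antizyme, moved differently in footprints and RNA. Footprints were 241 and 240 RPKM in control, 211 and 225 at 6 h, and 328 and 347 at 21 h. Both 6 h libraries lay below control and both 21 h libraries above it. The 6 h difference, a log2 fold change of -0.16 ± 0.08, did not pass (adjusted p = 0.31), and the 21 h rise of 0.45 ± 0.08, or 1.37-fold, did (adjusted p = 0.00288). RNA was 125 and 125 RPKM in control, 117 and 123 at 6 h, and 109 and 121 at 21 h. Its log2 fold change was 0.01 ± 0.08 at 6 h (adjusted p = 0.981) and -0.21 ± 0.08 at 21 h (adjusted p = 0.0938), neither past the threshold.

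TE of Oaz1 was 1.94 in control, 1.73 at 6 h and 3.07 at 21 h, and its rank went from the 21.8th to the 18.0th and then to the 43.8th percentile. Other loci with sequence close to Oaz1 could share its reads, and how such reads were assigned is not given. The rise of its TE at 21 h was 0.66 ± 0.11 on the log2 scale, or 1.58-fold, with an interval from 0.42 to 0.90 (adjusted p = 0.0362). Among the 9312 genes it was the 488th largest TE difference, and Sat1, with fewer reads, was the 1 member with a larger point estimate. The value itself ranged from 0.61 to 0.71 over 21 alternatives, but the adjusted p ran from 0.00411 to 0.212 and passed in 7 of them. Leaving out any of 9 libraries took it over the threshold: either control footprint library (adjusted p = 0.0848 and 0.0914), either 6 h footprint library (0.0761 and 0.0755), the 21 h footprint library numbered 2 (0.132), either control RNA-seq library (0.108 and 0.105) or either 21 h RNA-seq library (0.0733 and 0.0702).

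Oaz2, the less abundant antizyme, rose further in footprints. Its values were 48.1 and 42.8 RPKM in control, 53.4 and 62.7 at 6 h, and 94.7 and 95.4 at 21 h, from 113 to 198 reads. The libraries of the 3 groups did not overlap. The log2 fold change was 0.33 ± 0.11 at 6 h (adjusted p = 0.146) and 1.02 ± 0.11 at 21 h, or 2.03-fold (adjusted p = 0.000282), and the 21 h call passed in all 15 alternatives.

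RNA of Oaz2 was 15.0 and 16.8 RPKM in control, 15.0 and 20.0 at 6 h, and 22.1 and 23.1 at 21 h. Both 21 h libraries were above all others, with a log2 fold change of 0.41 ± 0.16 that did not pass (adjusted p = 0.0906). TE was 2.88, 3.16 and 4.38 in the 3 groups. Its log2 difference at 21 h was 0.61 with an interval from 0.17 to 1.05 (adjusted p = 0.24), a point estimate close to that of Oaz1 with fewer reads behind it. A difference in TE response between the antizymes was not tested.

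Azin1, the antizyme inhibitor, had footprints of 48.0 and 42.5 RPKM in control, 43.5 and 43.9 at 6 h, and 65.2 and 55.2 at 21 h. The 21 h libraries lay above the rest and the 6 h libraries lay within the control range. The 21 h log2 fold change was 0.37 ± 0.12 (adjusted p = 0.0364). RNA was 22.7 and 26.7 RPKM in control, 22.9 and 27.3 at 6 h, and 33.1 and 37.9 at 21 h, a log2 fold change of 0.44 ± 0.14 at 21 h (adjusted p = 0.046).

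Both calls for Azin1 were near the threshold. Without the first control footprint library the adjusted p was 0.0591, without the other 0.167, without the first 21 h library 0.17, and without either 6 h library 0.0611. In RNA, the adjusted p was 0.239 and 0.0777 without the first and the other control library, and 0.0877 and 0.186 without the first and the other 21 h library. TE of Azin1 was 1.85, 1.66 and 1.77, and the 21 h log2 difference of -0.07 had an interval from -0.47 to 0.34.

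Sat1, the acetyltransferase, had the largest change among the members. Footprints were 31.3 and 25.7 RPKM in control, 35.5 and 41.1 at 6 h, and 133 and 135 at 21 h, from 64 to 87 reads in control and 251 to 262 at 21 h. At 21 h the rise was 2.18 ± 0.12 on the log2 scale, or 4.54-fold (adjusted p = 1.22e-05), the 36th largest of 10390 genes. At 6 h both libraries were above control, with 0.41 ± 0.12 (adjusted p = 0.115).

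RNA of Sat1 was 34.9 and 26.9 RPKM in control, 47.8 and 34.3 at 6 h, and 97.3 and 88.1 at 21 h. The 6 h and control libraries overlapped in the values as deposited, and the 21 h libraries stood clear of both. The 21 h rise was 1.49 ± 0.18 on the log2 scale, or 2.82-fold (adjusted p = 0.000591), the 83rd largest of 9459 genes. TE was 0.927 in control, 0.887 at 6 h and 1.50 at 21 h. The TE difference at 21 h was 0.69 ± 0.25, with an interval from 0.15 to 1.22 (adjusted p = 0.285), so it did not pass over all genes. Both 21 h calls, in footprints and in RNA, passed in all 15 alternatives of each.

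Srm, spermidine synthase, moved up and then down. Footprints were 116 and 118 RPKM in control, 177 and 167 at 6 h, and 89.8 and 97.0 at 21 h, and the 3 groups did not overlap. The log2 fold change was 0.54 ± 0.09 at 6 h (adjusted p = 0.0324) and -0.36 ± 0.09 at 21 h (adjusted p = 0.013). RNA was 36.7 and 39.7 RPKM in control, 41.8 and 42.4 at 6 h, and 29.8 and 29.7 at 21 h. The RNA difference of 0.21 ± 0.11 at 6 h did not pass (adjusted p = 0.493), and the fall of -0.44 ± 0.11 at 21 h did (adjusted p = 0.0182). TE was 3.09, 3.89 and 3.27, with log2 differences of 0.33 ± 0.13 at 6 h (adjusted p = 0.596) and 0.08 ± 0.13 at 21 h (adjusted p = 0.864).

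The 6 h footprint call of Srm was lost when any library of control or of 6 h was left out, with adjusted p from 0.105 to 0.2 and a log2 fold change from 0.50 to 0.58. The 21 h footprint call was lost without the control library numbered 2 (adjusted p = 0.0589) or the 21 h library numbered 1 (0.059). The 21 h RNA call was lost without either control library (0.0666 and 0.109) or without the 21 h library numbered 2 (0.0829).

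Sms, spermine synthase, had lower footprints at both times. They were 86.3 and 91.1 RPKM in control, 67.6 and 72.0 at 6 h, and 71.9 and 55.3 at 21 h, so that all 4 treated libraries were below control. The log2 fold change was -0.36 ± 0.13 at 6 h (adjusted p = 0.173, or 0.0338 by voom) and -0.52 ± 0.13 at 21 h (adjusted p = 0.0135). The 21 h call was lost without the control library numbered 2 (adjusted p = 0.0787) or the 21 h library numbered 2 (0.066), whose omission brought the log2 fold change from -0.52 to -0.34. RNA was 14.6 and 16.0 RPKM in control, 14.6 and 13.6 at 6 h, and 15.0 and 13.5 at 21 h. As deposited, both 6 h libraries were below control, by a small margin, and the 21 h libraries overlapped with it. After scaling, the 6 h libraries overlapped with control and both 21 h libraries were below it. Its 21 h log2 fold change was -0.18 ± 0.15 (adjusted p = 0.419), and the TE difference was -0.34 with an interval from -0.77 to 0.09.

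Amd1 could not be measured with useful precision. The transcript given for it, with a frame of 463 codons, had 3 to 21 footprint reads and 21 to 42 RNA-seq reads per library. Footprints were 2.91 and 1.24 RPKM in control, 0.921 and 0.640 at 6 h, and 1.37 and 1.24 at 21 h. RNA was 5.32 and 2.26 RPKM in control, 4.40 and 4.06 at 6 h, and 3.75 and 4.63 at 21 h. No comparison passed, and the interval of the 21 h footprint difference ran from -1.37 to 0.45. Amd2, a near copy of Amd1, was not listed, and how reads shared by such copies were assigned is not given in the sources used here, so the Amd1 level is uncertain.

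The upstream sequences of Odc1, Sat1 and Oaz1 are shown because the RNA of the first pair rose at 21 h whereas that of Oaz1 did not pass the test. They are the 250 bases before the transcription start in RefSeq's mouse build GRCm38.p6, read along the strand of the gene. This is an older build than the GRCm39 named in the submitters' processing notes, and 6 of the 8 members had an entry. Odc1 lies at chr12:17544623-17544872 (plus strand), Sat1 at chrX:155216450-155216699 (minus strand) and Oaz1 at chr10:80826406-80826655 (plus strand). The annotated gene start of Odc1, at 17544808, falls within its stretch, so the last part of that stretch lies inside the gene. Capitals mark matches on either strand to 6 motifs, which were the E-box CACGTG, the CRE core TGACG, the AP-1 site TGANTCA, the core of the antioxidant response element TGACNNNGC, the GC box GGGCGG and the TATA element TATAAA. The CRE core can overlap with the antioxidant response core.

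Odc1: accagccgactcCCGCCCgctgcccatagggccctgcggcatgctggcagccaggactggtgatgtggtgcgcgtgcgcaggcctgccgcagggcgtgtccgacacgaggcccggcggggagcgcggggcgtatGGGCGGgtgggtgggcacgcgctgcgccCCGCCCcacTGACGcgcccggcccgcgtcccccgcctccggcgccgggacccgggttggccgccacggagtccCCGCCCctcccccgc
Sat1: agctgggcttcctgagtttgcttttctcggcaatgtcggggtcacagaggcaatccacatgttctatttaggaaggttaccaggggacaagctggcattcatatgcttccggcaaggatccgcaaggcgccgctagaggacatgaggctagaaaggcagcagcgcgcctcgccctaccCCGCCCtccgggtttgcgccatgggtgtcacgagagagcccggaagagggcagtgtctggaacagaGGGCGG
Oaz1: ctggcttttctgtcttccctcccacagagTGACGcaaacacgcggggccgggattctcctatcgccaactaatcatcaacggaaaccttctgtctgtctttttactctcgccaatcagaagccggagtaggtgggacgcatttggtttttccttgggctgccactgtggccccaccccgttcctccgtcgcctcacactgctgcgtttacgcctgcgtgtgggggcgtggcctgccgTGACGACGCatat

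Odc1 held 4 GC boxes and a CRE core 79 bases before the start, in a stretch of 80.0% G and C. Sat1 held 2 GC boxes, 72 and 6 bases before the start, and none of the other motifs, at 59.6% G and C. Oaz1 held no GC box but 2 CRE cores, at 221 and 13 bases, and the latter lies within a match to the antioxidant response core, at 58.0% G and C. Over 32851 promoter entries of the same length, the median was 52.4% G and C, below all 3 stretches. Of these entries, 32.7% held a GC box, 17.8% a CRE core and 10.2% an antioxidant response core. An AP-1 site was held by 6.75%, an E-box by 6.02% and a TATA element by 12.4%. Matches to a motif depend on the share of G and C. Of the 7 start sites listed for the members, 5 held a GC box, 3 a CRE core, 1 an E-box (Sms) and 0 an AP-1 site or TATA element. These are matches of letters and describe no binding.

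Between 6 h and 21 h, with treated libraries on both sides, 5 members rose in footprints (Odc1, Oaz1, Oaz2, Azin1 and Sat1) and 1 fell (Srm). Over all genes, 15% were called higher and 15.7% lower. In RNA, Odc1 and Sat1 rose and Srm fell, where 7.53% of genes were called higher and 8.2% lower. The rise of Odc1 was 0.33 in footprints on the log2 scale (adjusted p = 0.0408) and did not pass without the first or second 6 h library (adjusted p = 0.163 and 0.144) or the first or second 21 h library (0.0584 and 0.16). The rise of Azin1 was 0.43 (adjusted p = 0.0251) and did not pass without the first or second 6 h library (0.107 and 0.106) or the first 21 h library (0.117). Sat1 footprints rose by 1.77 ± 0.12 and its RNA by 1.03 ± 0.18 on the log2 scale. Srm footprints fell by 0.90 on the log2 scale, or to 0.535 of the 6 h level, and its RNA fell by 0.64.

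Scaling between libraries changed the comparisons of the treated groups. Without the scaling factors, the median log2 fold change of all genes in RNA at 21 h against 6 h was 0.15 in place of 0.01, a shift of 0.14, and 70.6% of the calls were higher in place of 47.8%. In TE at 21 h against 6 h the shift was -0.12, and 27.3% of the calls were higher in place of 58.5%. The RNA of Odc1 and Sat1 still rose and that of Srm still fell without scaling, and Azin1 RNA then passed too, at 0.50 (adjusted p = 0.0428). Voom also called Azin1 RNA higher (adjusted p = 0.0129). In TE at 21 h against control the share of higher calls was 63.2% with scaling and 52.9% without.

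TE at 21 h against 6 h was compared after the other results were seen. Oaz1 was the 1 member that passed, and it was higher, with a log2 difference of 0.82 ± 0.11, or 1.77-fold (adjusted p = 0.0058), where 0.591% of genes (55 of 9312) were called higher. It passed in 19 of 21 alternatives, and leaving out the first 6 h footprint library (adjusted p = 0.0553) was 1 of the 2 that lost it. Sat1 had a log2 difference of 0.74 with an interval from 0.21 to 1.28 (adjusted p = 0.203), and Oaz2 had 0.47 with an interval from 0.03 to 0.90 (adjusted p = 0.332).

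Ratios between members within a library need no scaling between libraries. The summed footprint RPKM of Oaz1 and Oaz2 over that of Odc1 was 2.53 and 3.01 in control, 1.78 and 1.90 at 6 h, and 2.29 and 2.22 at 21 h. In RNA the same ratio was 1.67 and 1.52 in control, 1.22 and 1.31 at 6 h, and 0.806 and 0.856 at 21 h. The RNA ratio thus moved in 1 direction, without overlap between groups, whereas the footprint ratio was lowest at 6 h and at 21 h lay between the 6 h and the control libraries. With 2 libraries against 2, the smallest p an exact two-sided permutation test can give is 0.333, and these ratios were not tested.

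Oaz2 over Oaz1 in footprints was 0.200 and 0.178 in control, 0.253 and 0.278 at 6 h, and 0.289 and 0.275 at 21 h. The 6 h and 21 h libraries overlapped, and both groups were above control. Sat1 over Srm, the acetyltransferase against the synthase that makes a substrate of it, was 0.269 and 0.218 in control, 0.201 and 0.245 at 6 h, and 1.48 and 1.39 at 21 h in footprints. In RNA it was 0.950 and 0.679 in control, 1.14 and 0.809 at 6 h, and 3.26 and 2.97 at 21 h.

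**Figure D3:**
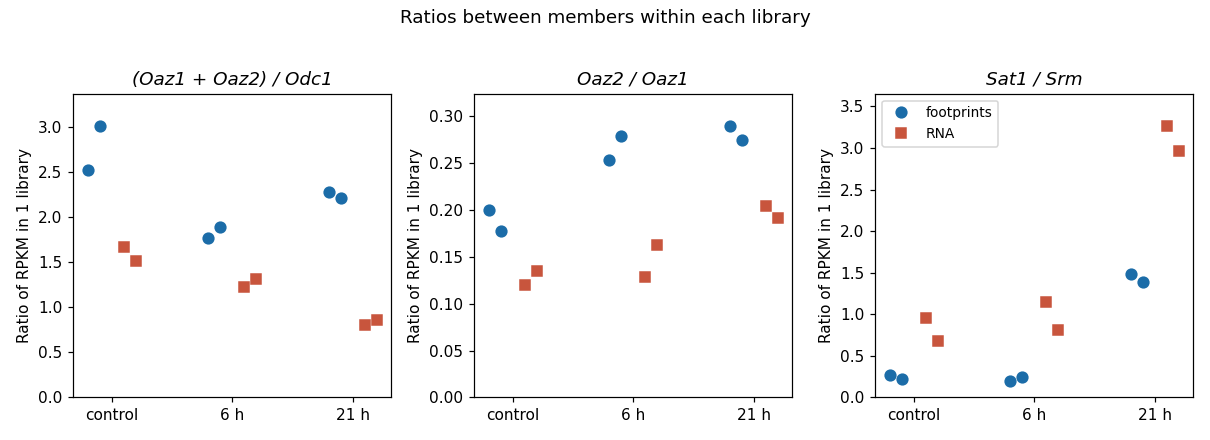
Ratio of RPKM within each library for antizymes over Odc1, Oaz2 over Oaz1 and Sat1 over Srm, with groups on the x axis, footprints as blue circles and RNA as red squares, 2 libraries each. The RNA ratio of antizymes to Odc1 steps down from 1.52 or more in control to 0.856 or less at 21 h, and Sat1 over Srm in footprints is 1.39 or more at 21 h and 0.269 or less in all other libraries.

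The wider pathway was taken from a list of 37 genes, of which 33 were listed and 22 passed the minimum in footprints. At 6 h, 1 of the 22 passed in footprints in limma's fit, and 6 had an unadjusted p under 0.05. Voom called 2 of them, where it called 1276 of 10390 genes in either direction. The gene past the threshold in limma's fit was Mtap, the phosphorylase that recycles the methylthioadenosine left over by polyamine synthesis. It fell by 0.45 on the log2 scale (adjusted p = 0.0416), where 0.991% of all genes were called lower. In RNA and in TE at 6 h, 0 of 21 passed in limma's fit or by voom, and 2 and 3 had an unadjusted p under 0.05. At 21 h in footprints, 5 rose and 3 fell, with a median log2 fold change of 0.10 over the 22, where 18.9% of all genes were called higher and 20.2% lower. In RNA at 21 h, 2 rose and 1 fell of 21, with a median of 0.12, where 11.6% of all genes were called higher and 12.2% lower. At 21 h voom called 9 of the 22 in footprints, where it called 4649 of 10390 genes. In RNA it called 7 of 21, where it called 3007 of 9459 genes. In TE at 21 h, 0 of 21 passed in limma's fit or by voom, and 4 had an unadjusted p under 0.05.

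Among the 8 listed genes of supply and salvage that were tested in footprints at 21 h, Oat and Ahcy rose and Mtap fell. Mtap footprints were 275 and 261 RPKM in control, 204 and 192 at 6 h, and 181 and 164 at 21 h, with no overlap between groups. Its log2 fold change at 21 h was -0.67 ± 0.09 in footprints (adjusted p = 0.000597) and -0.68 ± 0.16 in RNA (adjusted p = 0.0137). Oat, which converts ornithine and glutamate semialdehyde, had footprints of 98.6 and 101 RPKM in control and 147 and 146 at 21 h, a log2 fold change of 0.51 ± 0.09 (adjusted p = 0.00205). Ahcy, which splits S-adenosylhomocysteine, had 29.8 and 23.3 RPKM in control and 34.5 and 50.1 at 21 h, with 0.61 ± 0.19 (adjusted p = 0.0293).

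Of 3 tested genes of catabolism, Paox, the oxidase of acetylated polyamines, fell and none rose. Its footprints were 36.9 and 29.9 RPKM in control, 35.5 and 35.9 at 6 h, and 20.5 and 22.3 at 21 h, a log2 fold change of -0.66 ± 0.13 (adjusted p = 0.00494). Sat1 and Paox, which act in sequence in the breakdown of polyamines, thus moved in opposite directions at 21 h. Of 3 tested genes of hypusine formation, Eif5a fell. It encodes the translation factor that carries hypusine, an amino acid made from spermidine, and its footprints were 2886 and 2787 RPKM in control and 2220 and 2142 at 21 h. The log2 fold change was -0.42 ± 0.07 (adjusted p = 0.00198). Other loci with sequence close to Eif5a could share its reads.

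Of 5 tested genes of transport, Slc3a2, the heavy chain of amino acid transporters and a reported partner in polyamine export, rose in both assays. Footprints were 132 and 132 RPKM in control and 194 and 203 at 21 h, a log2 fold change of 0.55 ± 0.09 (adjusted p = 0.00147), and RNA rose by 0.74 ± 0.12 (adjusted p = 0.0029). Of 3 tested transcription factors, Max, the partner of Myc, rose in footprints by 0.47 ± 0.12 (adjusted p = 0.0132). Nfe2l2, the factor that binds antioxidant response elements and can act on Sat1, rose in footprints by 0.42 ± 0.09 (adjusted p = 0.0064) and in RNA by 0.48 ± 0.15 (adjusted p = 0.0412). Myc itself did not pass, with -0.09 ± 0.11 in footprints (adjusted p = 0.522) and 0.34 ± 0.13 in RNA (adjusted p = 0.0877).

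**Figure D4:**
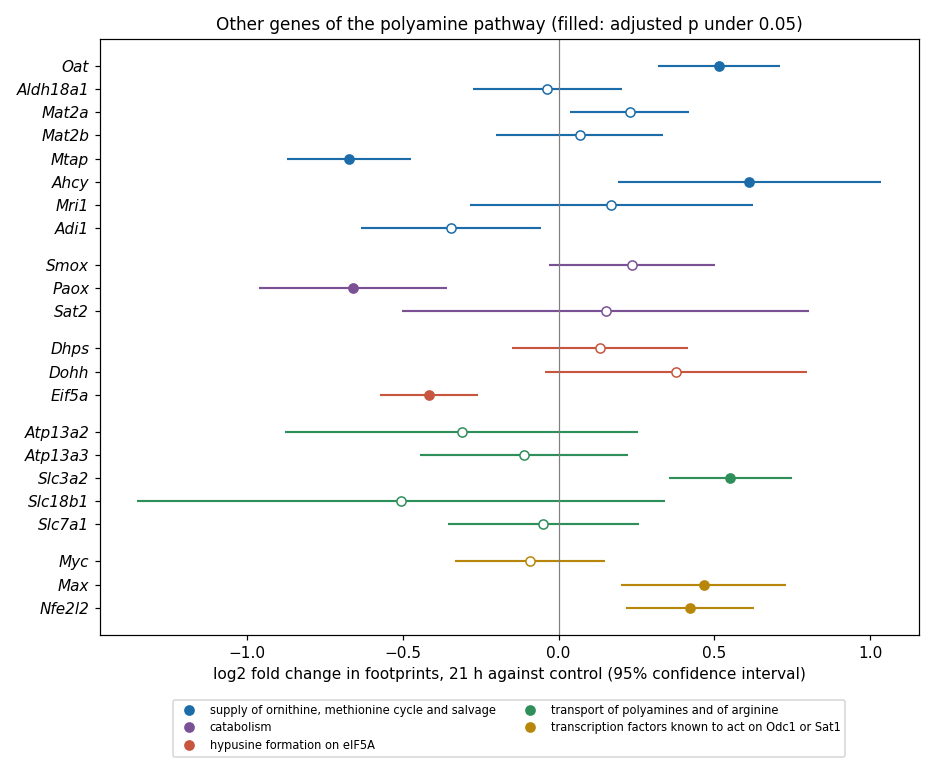
Log2 fold change in footprints at 21 h against control for the 22 other pathway genes tested, coloured by role, with 95% confidence intervals and filled symbols at an adjusted p under 0.05. Oat, Ahcy, Slc3a2, Max and Nfe2l2 lie to the right and Mtap, Paox and Eif5a to the left.

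The genes most like 3 of the members were sought over the 12 libraries, as Pearson's r of log2 values centred within each assay, among the 5611 genes whose scaled RPKM averaged 5 or more in both assays. For Odc1 they were Paip2b (r = 0.986), Cdca5 (0.980) and Gemin2 (0.979). For Sat1 they were Psmd3 (0.981), Cherp (0.979) and Ccdc117 (0.977). For Oaz1 they were mt-Nd2 (0.967), mt-Nd4l (0.966) and Eif3l (0.947). The libraries share groups and depth, so these r describe a ranking and carry no test.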

How the data were processed

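Ribosome profiling and RNA-seq were analysed in KPC cells, with 2 libraries per group and assay. Each library came with RPKM values deposited by the authors, 1 transcript per gene and no pooling, with footprints counted over the coding length and RNA over the transcript length. The submitters' processing notes name cutadapt, STAR and GRCm39, and other settings are not given in the sources used here. Transcripts not listed were set to 0. RPKM multiplied by length gave whole reads (within 0.05) for 100% of values, and these gave the depth.

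RPKM were scaled by median-of-ratios factors within each assay, filtered at a mean of 1, then taken as log2(RPKM + 0.5) into linear models of limma 3.58.1 under R 4.3.3 (eBayes with a trend, 3 groups in a single model, two-sided, Benjamini-Hochberg over all genes, threshold 0.05). Fold changes on this scale understate those of low genes. TE was the interaction of assay and group over 12 libraries. The count test on recovered reads was limma's voom. Means ± SD are of RPKM as deposited.

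The 8 members and the wider list were chosen with earlier results of these data known. Members, wider-list genes past the threshold at 21 h against control or at 6 h, and the 3 genes most like Odc1, Oaz1 and Sat1 are named. Myc and Epcam, and the genes that hold most RNA-seq reads, were named after their values were seen. The alternatives changed the pseudocount (0.1 or 1), the filter (none, or a mean of 5), dropped the scaling or the variance trend, or used voom, only the groups compared, the replicate number as a block, or 1 library fewer. One marker gene and one allele of the line are not reported here.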

Additional observations from a re-analysis of the deposited data

Results flagged for a closer look

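Groups of 2 libraries were too small to be examined for outliers. Levels differed between 21 h and 6 h of Cis for 6 members by limma's test, which compares treated libraries on both sides. The control libraries entered its estimate of the spread, the scaling factors and the filter for the genes tested. No control was labelled with a time, so longer Cis and longer culture cannot be told apart. Over all genes, 30.7% were called in either direction in footprints, 15.7% in RNA and 1.01% in TE. In footprints the log2 difference was 1.77 for Sat1 (adjusted p = 6.51e-05), 0.69 for Oaz2 (adjusted p = 0.00301) and 0.61 for Oaz1 (adjusted p = 0.00125). It was 0.43 for Azin1 (adjusted p = 0.0251), 0.33 for Odc1 (adjusted p = 0.0408) and -0.90 for Srm (adjusted p = 0.000345). In RNA it was 1.03 for Sat1 (adjusted p = 0.00561), 0.45 for Odc1 (adjusted p = 0.00764) and -0.64 for Srm (adjusted p = 0.00519). In TE it was 0.82 for Oaz1 (adjusted p = 0.0058). Srm was the member whose footprints passed the test in opposite directions at 6 h and 21 h.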

How the results depend on the processing

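Of 1215 values of single members under the alternatives, 1109 kept their direction and side of the threshold, 68 lost the threshold, 4 passed it and 34 changed sign. Each change of sign was of a difference that did not pass. The cause of these changes was not tested. Depth limits Amd1 most, with 3 to 42 reads per library.

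For footprints at 6 h, the 2 member calls became 1 with a pseudocount of 0.1 and 0 without the filter, without the variance trend or with the replicate block, and 3 by voom, which added Sms. The 7 member calls in footprints at 21 h became 4 without the variance trend, and the 4 in RNA became 2. Azin1 also lost its 21 h footprint call without the filter and with only the groups compared, and its 21 h RNA call without the filter. Its footprint call passed in 7 of 15 alternatives and its RNA call in 9 of 15. In footprints at 21 h against 6 h, Odc1 lost its call without the filter, and both Odc1 and Azin1 lost theirs without the variance trend. In RNA at 6 h, voom called 1 member in place of 0. The 1 call in TE at 21 h against control became 0 without the filter, without scaling, without the variance trend, with only the groups compared or with the replicate block. Without the variance trend, RNA at 21 h against 6 h gave 1 call in place of 3, and TE 0 in place of 1. Without scaling and by voom that RNA comparison gave 4, which added Azin1. Leaving out 1 library gave 0 to 2 calls in footprints at 6 h, 4 to 6 at 21 h, 2 to 4 in RNA at 21 h, and 0 to 1 in TE at 21 h against control and against 6 h.

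Without scaling, log2 changes that turned sign were -0.061 for Oaz1 in RNA at 6 h, 0.026 for Sat1 in TE at 6 h, -0.010 for Odc1 in TE at 21 h, 0.012 for Sms in RNA at 21 h against 6 h, and -0.043 for Azin1 in TE at 21 h against 6 h. Leaving out 1 library gave these ranges across 0. In footprints they were -0.13 to 0.0065 for Azin1 at 6 h, -0.93 to 0.013 for Amd1 at 21 h, and -0.35 to 0.018 for Sms at 21 h against 6 h. In RNA at 6 h they were -0.023 to 0.038 for Oaz1, -0.0078 to 0.39 for Oaz2, -0.034 to 0.21 for Azin1, -0.25 to 0.85 for Amd1 and -0.10 to 0.0047 for Sms, and at 21 h -0.41 to 0.70 for Amd1. In TE at 6 h they were -0.29 to 0.18 for Sat1 and -0.053 to 0.34 for Oaz2. In TE at 21 h they were -0.084 to 0.16 for Odc1 and -0.18 to 0.050 for Azin1, and against 6 h -0.22 to 0.15 for Sms and -0.037 to 0.21 for Azin1.

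Libraries with the same replicate number showed no sign of pairing, with correlations of deviations from -0.08 to 0.07 over 5611 genes. Noise within single libraries can hide a pairing, so these values cannot settle whether such libraries shared a culture. The replicate block took the calls of Odc1 and Srm in footprints at 6 h (adjusted p = 0.0742 and 0.0586), of Oaz1 in TE at 21 h (0.0828) and of Odc1 in footprints at 21 h against 6 h (0.0615), and changed no other member's call.

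Over all genes, the 212 calls in footprints at 6 h became 17 without the filter, 341 at a mean of 5, 0 without the trend, 1276 by voom, 442 with only the groups compared, 37 with the block, and 0 to 380 without 1 library. Voom called 228 genes in RNA at 6 h in place of 0 (1 without a 6 h library) and 14 in TE at 6 h (4 with the block, 1 with a pseudocount of 0.1). The 38 calls in TE at 21 h became 8, 67, 0, 152, 3 and 16 in the same order and 2 or more without 1 library. The 94 in TE at 21 h against 6 h became 54 without the filter, 154 without scaling, 4 without the trend, 171 by voom, 49 with only the groups compared and 25 with the block. The 1488 in RNA at 21 h against 6 h became 918 without the filter and 790 without the trend. Leaving out 1 library gave as few as 1088 of 2248 in RNA at 21 h, 669 in RNA and 1593 of 3188 in footprints at 21 h against 6 h, and 17 in TE.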

Other observations

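Ahcy, which hydrolyses S-adenosylhomocysteine, had point estimates of opposite sign in the assays at 21 h. Its TE difference of 1.23 ± 0.35 on the log2 scale (adjusted p = 0.175) did not pass, and it rested on 16 to 43 RNA-seq reads per library. Atp13a3, a transporter of polyamines into the cell, had a TE difference of -0.42 ± 0.19 at 21 h (adjusted p = 0.386) and a rise in RNA of 0.47 ± 0.14 between 6 h and 21 h (adjusted p = 0.0453).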
